A study of Homo sapiens with 12 samples.

Results

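RNaseH1 peaks deep inside gene bodies were 10753 of the 54623 peaks (19.7%) in the authors' peak list for nuclease-dead RNaseH1 in U2OS cells, a human osteosarcoma line. A peak was counted when its summit lay on chromosomes 1 to 22, inside a protein-coding gene, and more than 10 kb from both ends of every protein-coding and lncRNA gene. Its width also had to be under 2000 bp. Enrichment played no part in the choice. The study has 12 libraries from 2 tet-on lines, each expressing a Flag-tagged nuclease-dead protein: RNaseH1-D210N in one and REXO4-D386A, a mutant of a predicted RNA exonuclease, in the other. Each line gave 2 anti-Flag ChIP libraries and 1 input library with doxycycline (1 µg/ml, about 60 h), and the same number without it. Whether REXO4 and RNaseH1 bind R-loops is the question of the series. The processed data used here are 1 peak list per protein, with no value per library, so no result below has an error between replicates and none has a p-value. The intervals given are 95% intervals for counting error only, and whether a peak needs doxycycline was not tested.

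An R-loop forms when RNA pairs with the DNA strand it was copied from and leaves the other strand single. RNase H1 cuts the RNA of such hybrids, and the D210N change removes cutting while leaving binding, so the tagged protein marks places where hybrids, or the protein itself, were fixed to chromatin. R-loops are best known at promoters rich in CpG, at the places where transcripts end, and over genes of tRNA and other abundant noncoding RNAs. The middle of a long gene is mostly intron, but it can also hold alternative promoters, enhancers and small genes. The genome sequence under the peaks was not used here, so exon or intron was not assigned.

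The sequences that follow show what lies at annotated internal promoters with a peak, and at 1 without. Each line gives the 250 bases before an annotated transcript start inside a host gene, 5′ to 3′ on the gene's strand, with every CG in capitals (RefSeq, GRCh38.p14). ELF2 (an ETS transcription factor, chr4:139084225-139084474, minus strand) held the peak of highest fold among those shared with REXO4. GPAM (a mitochondrial acyltransferase of triglyceride synthesis, chr10:112183766-112184015, minus strand) held the peak of lowest q at an internal start. TCF7L2 (a transcription factor of Wnt signalling) is shown at a start with a peak (chr10:113126383-113126632, plus strand) and at a start 2418 bp from the nearest deep summit (chr10:113129021-113129270, plus strand).
ELF2, start with a peak: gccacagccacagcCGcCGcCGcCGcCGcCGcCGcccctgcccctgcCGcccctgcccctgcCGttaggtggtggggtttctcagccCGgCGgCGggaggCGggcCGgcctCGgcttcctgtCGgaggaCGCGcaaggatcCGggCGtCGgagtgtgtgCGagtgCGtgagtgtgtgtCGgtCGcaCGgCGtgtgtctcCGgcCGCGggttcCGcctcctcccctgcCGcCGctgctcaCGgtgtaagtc
GPAM, start with a peak: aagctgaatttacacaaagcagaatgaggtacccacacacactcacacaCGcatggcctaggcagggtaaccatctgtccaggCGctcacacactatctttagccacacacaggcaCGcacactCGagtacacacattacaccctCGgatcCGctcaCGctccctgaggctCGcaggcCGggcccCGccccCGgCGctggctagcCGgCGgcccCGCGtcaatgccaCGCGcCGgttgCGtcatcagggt
TCF7L2, start with a peak: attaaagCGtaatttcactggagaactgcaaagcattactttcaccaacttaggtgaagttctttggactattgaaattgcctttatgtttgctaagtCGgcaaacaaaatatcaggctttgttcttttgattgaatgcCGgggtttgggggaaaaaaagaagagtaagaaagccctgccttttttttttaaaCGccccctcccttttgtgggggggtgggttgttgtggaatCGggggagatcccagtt
TCF7L2, start without a peak: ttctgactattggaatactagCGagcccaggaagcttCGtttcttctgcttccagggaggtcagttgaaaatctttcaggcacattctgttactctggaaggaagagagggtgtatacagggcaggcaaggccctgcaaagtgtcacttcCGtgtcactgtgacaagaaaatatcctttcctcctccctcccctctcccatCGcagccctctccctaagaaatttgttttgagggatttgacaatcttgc
The ELF2 stretch had 34 CG and a GC content of 75.2%, and the GPAM stretch had 20 CG and 62.0% GC. The TCF7L2 stretch at the peak had 5 CG and 42.4% GC, while the TCF7L2 stretch without a peak had 4 CG and 48.4% GC. In GC content, though not in the number of CG, the pair of TCF7L2 starts ran against the pattern of the whole set, described next.

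Most deep peaks were not at an annotated promoter, but the GC-rich internal promoters usually had one. Of 10181 deep peaks on chromosomes with starts in the RefSeq table, 543 (5.33%, interval 4.91 to 5.79%) had their summit within 1 kb of an annotated start, against 26.6% of all peaks of the list on those chromosomes. The rule keeps clear of gene ends, where most annotated starts lie, so the lower share is in part built in. Starts on chromosome 8 were not used here, and not every gene has a start in the table. Among the 8651 peaks whose hosts are all in it, 542 (6.27%) were at a start. Read from the promoters, 600 of 2075 annotated internal starts (28.9%) had a deep peak within 1 kb, and 453 of the 1357 genes with such starts (33.4%) had at least 1. A summit of any class lay within 1 kb of 613 of these internal starts (29.5%), against 8776 of 13150 starts at the ends of protein-coding genes (66.7%).

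The starts with a deep peak were richer in GC and CG than those without. In windows of 300 bases (250 before to 50 after the start), the median GC content was 65.7% at 600 internal starts with a deep peak, 46.7% at 1475 without, and 58.7% over all 35116 start windows. The median number of CG was 25 with a peak, 4 without, and 14 over all windows. The ratio of observed to expected CG, which is high in CpG islands, had a median of 0.768 at starts with a peak and 0.268 at starts without. Among 105 genes with both kinds of internal start, the starts with a peak had the higher mean GC in 91, and the median difference, with minus without, was 13.2 percentage points. TCF7L2, shown above, was among the exceptions.

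The share of starts with a summit climbed with GC at both kinds of start. Of internal starts under 40% GC, 10 of 350 (2.86%) had a summit of any class within 1 kb. The shares were 7.07% from 40 to 50% GC, 29.1% from 50 to 60%, 55.0% from 60 to 70%, and 80.7% (239 of 296) at 70% or more. At starts of gene ends the shares in the same ranges were 7.47%, 22.4%, 57.9%, 80.8% and 89.4%. Internal starts were thus below starts of gene ends in all 5 ranges, and the gap was widest from 50 to 60% GC.

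**Figure D1:**
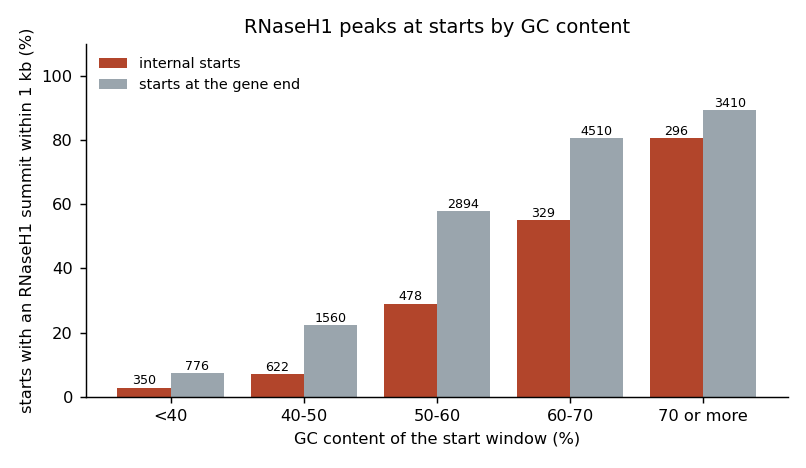
Share of annotated starts with an RNaseH1 summit within 1 kb (percent, vertical axis) by GC content of the 300-base start window (horizontal axis), for internal starts (red) and starts at the ends of protein-coding genes (grey), with the number of starts above each bar. The share goes up from 2.86% to 80.7% at internal starts and from 7.47% to 89.4% at gene ends.

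Motifs of the CTCF core and G runs were more frequent at starts with a peak. Motifs were searched on both strands. The CTCF core AGGNGGC was in 48.2% of windows at starts with a deep peak, 21.6% at starts without, and 35.9% of all start windows. A run of 4 G (GGGG) was in 97.5%, 80.6% and 89.6% of them in the same order. The motifs of AP-1, TEAD and RUNX went the other way. The AP-1 motif TGANTCA was in 5.67% of windows with a peak, 12.4% without, and 7.71% of all. The TEAD motif GGAATG was in 11.3%, 17.5% and 14%, and the RUNX motif TGTGGT in 11.2%, 18.4% and 13.1%. The CRE motif was rare throughout, at 1.83%, 1.42% and 1.85%. The CTCF core and G runs are themselves rich in G and C. Starts with and without a peak differed in median GC content (65.7% and 46.7%), and motif shares at matched GC were not tested. A match is only a match of letters, and binding of these factors was not measured.

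Summits at internal starts sat mostly just downstream. The median distance was 188 bp in either direction, and 357 of 543 summits (65.7%) were downstream, with a median signed position of 83 bp after the start. Peaks at starts were wide and sat where the caller expected many fragments. Their median width was 629 bp, against 304 bp for the 9638 deep peaks over 1 kb from every annotated start. Their median expected pileup was 18.5 fragments, against 5.21 away from starts, and their median −log10 q was 10.1, against 3.47. Their median fold was 3.05, against 3.13. Peaks at starts thus differed in width and q, while their folds lay in the same range.

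**Figure D2:**
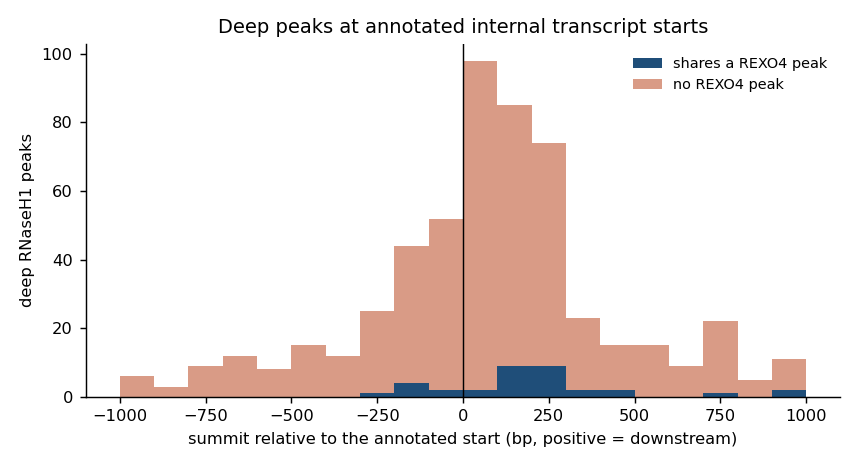
Position of 543 deep RNaseH1 summits relative to the nearest annotated internal start (bp, horizontal axis, positive is downstream), as the number of peaks per 100 bp (vertical axis). Most summits (357) lie downstream, and the 34 peaks that share a REXO4 peak (blue) lie in the same range.

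As a whole, the deep peaks were narrow, faint and of ordinary fold. Fold is the authors' deposited value, the fragments at the summit over the expected pileup, each with 1 added. The median fold was 3.12 (interval 3.11 to 3.14, quartiles 2.68 and 3.64, range 1.54 to 17.1), against 3.05 (3.05 to 3.06) in the rest of the list. Their median width was 308 bp, against 393 bp in the rest of the list and 667 bp at gene ends, where the summit is within 1 kb of where a protein-coding or lncRNA gene starts or stops. The median deep peak rested on 19 fragments over an expected 5.36, against 26 over 8.33 in the rest of the list. A fold of 5 or more was held by 207 deep peaks (1.93%, interval 1.67 to 2.2%), against 3.01% of the whole list. Of the deep peaks with a q of 1e-05 or less, 7.13% had such a fold, but that choice itself favours high folds. The share of the whole list at that q is not given here. A q of 1e-05 or less was held by 2903 (27.0%), against 45% of the whole list. The deep peaks were close to intergenic peaks over 10 kb from any gene end, which had a median fold of 3.17, a median width of 315 bp and a median of 19 fragments.

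Fold in this list goes with the expected pileup. The relation is in part built in, since a peak enters the list only past the caller's threshold. The lowest fold of a deep peak was 2.41 at an expected pileup of 2.97 to 3.57 fragments. It was 1.54 in the range from 8.33 fragments up. Deep peaks with an expected pileup of up to 4 fragments had a median fold of 3.72, the same as gene-end peaks and intergenic peaks in that range. From 10 to 20 expected fragments, the median fold was 2.62 in 989 deep peaks, 3.08 in 3853 gene-end peaks and 2.90 in all peaks of the list. In that range the deep peaks at an annotated start had a median fold of 3.15, against 2.56 for those away from starts. Over 20 expected fragments the median was 2.85 in 463 deep peaks and 3.0 in 8574 gene-end peaks. Up to 4 expected fragments were found at 24.2% of deep peaks, against 2.37% of gene-end peaks and 14.5% of the whole list, so the higher median fold of the deep peaks stood beside lower expected pileups.

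**Figure D3:**
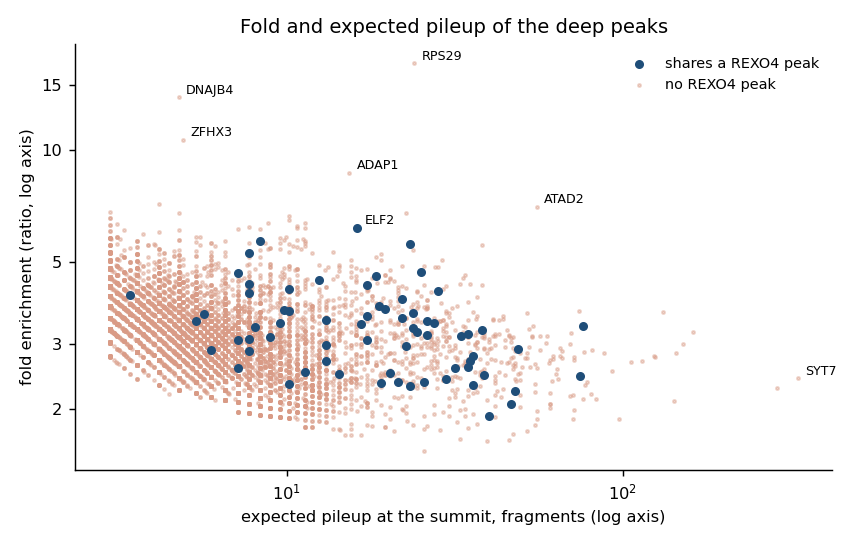
Fold enrichment (vertical, log axis) against expected pileup at the summit in fragments (horizontal, log axis) of the 10753 deep peaks, with peaks sharing a REXO4 peak in blue. The lower edge of the cloud falls as the expected pileup grows, which the caller's threshold in part builds in. RPS29 (17.1), DNAJB4 (13.9) and ZFHX3 (10.7) stand highest in fold, and the blue points lie mostly at high expected pileup.

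Over all genes together, peaks thinned out steadily with distance from the gene end. Within protein-coding genes there were 193 RNaseH1 peaks per Mb in the first 1 kb from the nearest end, 31.6 from 1 to 5 kb and 23.3 from 5 to 10 kb. The deep peaks continued this decline, with 19.0 per Mb from 10 to 20 kb, 14.4 from 20 to 50 kb, 10.4 from 50 to 100 kb, 6.21 from 100 to 200 kb, and 3.51 beyond 200 kb. There was no step at the 10 kb limit: 592 summits from 9 to 10 kb had a median fold of 3.03, and 537 from 10 to 11 kb had 3.02. The median fold of deep peaks was 3.05 from 10 to 20 kb, 3.13, 3.20 and 3.29 in the next ranges, and 3.28 beyond 200 kb. Over the same ranges the median expected pileup was 5.95, 5.36, 4.76, 4.46 and 4.17 fragments. Higher folds at lower expected pileups are in part built in, as above.

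**Figure D4:**
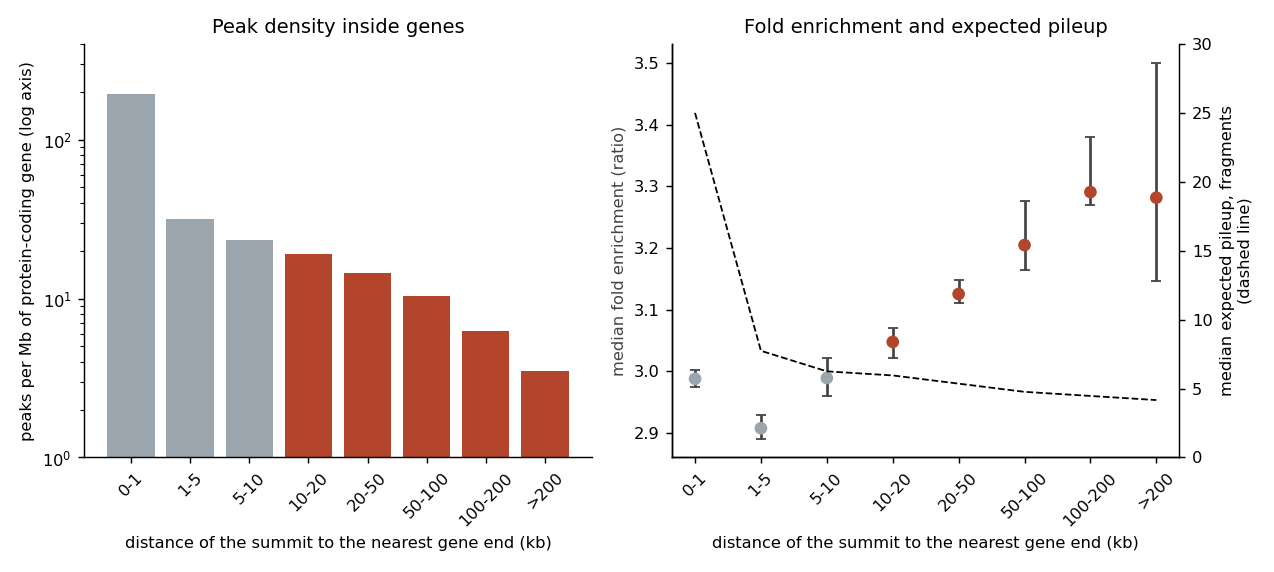
Left, RNaseH1 peaks per Mb of protein-coding gene (log axis) by distance of the summit to the nearest gene end in kb, with deep ranges in red and ranges within 10 kb in grey. Right, median fold with its 95% interval (points) and median expected pileup (dashed) in the same ranges, where density falls from 193 to 3.51 per Mb while the deep medians of fold run from 3.05 to 3.29.

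The decline was alike from both ends of the gene. In genes with a strand in the RefSeq table, deep peaks numbered 21.4 per Mb from 10 to 20 kb after the 5′ end and 21 per Mb from 10 to 20 kb before the 3′ end. From 160 to 320 kb the densities were 8.55 per Mb from the 5′ end and 9.57 per Mb from the 3′ end. With each gene cut into 3 equal parts from 5′ to 3′, they were 12.6, 13.6 and 12 per Mb. The middle part was thus not the least dense. Long genes also had fewer peaks at a given distance. From 20 to 50 kb from an end, the density was 19.0 per Mb in genes with up to 100 kb of interior, 14.2 with 100 to 300 kb, and 7.47 with over 300 kb. Gene length and distance from an end each moved with density.

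Host genes differed widely in how many deep peaks they held. Of 10045 protein-coding genes with some interior over 10 kb from every end, 4664 (46.4%) had a deep peak, and all together they held 13 per Mb of interior. One peak was found in 2207 hosts, 2 to 4 in 1974, 5 to 9 in 412, and 10 or more in 71, which held 1053 peaks (9.79%). GSE1, whose protein is found with histone deacetylase complexes, had the most, with 52 peaks in 0.353 Mb of interior (147 per Mb), of folds from 1.74 to 5.24 and a median of 2.58. CAMTA1, a calmodulin-binding transcription activator, had 35, and RBFOX3, which encodes the neuronal splicing factor NeuN, had 33. ZNF469, a zinc finger gene, had 26, RPTOR, the mTORC1 subunit, 25, and RANBP2, a nuclear pore protein whose annotated span is 1123 kb here, 24. That span overlaps the gene RGPD5, and some of the RANBP2 peaks lie inside both genes. TRAPPC9, a subunit of a vesicle trafficking complex, had 23, and PRKAG2, a regulatory subunit of AMP-activated kinase, 22. Among genes with at least 0.05 Mb of interior, BAIAP2, an actin regulator, held 209 per Mb with 13 peaks, and AGO2, the Argonaute nuclease, 153 per Mb with 11.

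Some of the longest genes held none. GPC5, a glypican with 1.27 Mb of interior, PTPRT, a receptor tyrosine phosphatase with 1.02 Mb, NRG3, a neuregulin with 1.03 Mb, and SGCD, a sarcoglycan with 0.942 Mb, had no deep peak. By interior length, the density was 31.5 per Mb in genes with up to 10 kb of interior, 19.4 from 30 to 100 kb, 7.35 from 300 to 1000 kb, and 2.85 in the 49 genes with over 1000 kb. RNA levels of these genes were not measured in the files used here.

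**Figure D5:**
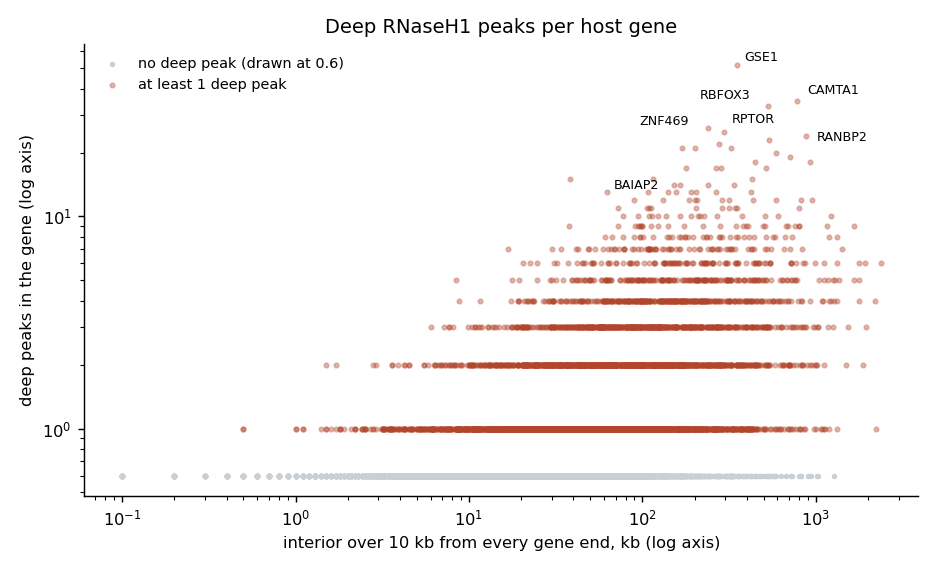
Deep RNaseH1 peaks per protein-coding gene (vertical, log axis) against the gene's interior over 10 kb from every gene end in kb (horizontal, log axis), with genes without a deep peak in grey at 0.6. GSE1 stands highest with 52 peaks, and genes without any deep peak occur at interiors of over 1000 kb.

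Most deep peaks had no other summit of the list within 10 kb. Their spacing was not compared with that of scattered peaks of the same density. Another summit of the list lay within 10 kb of 4367 deep peaks (40.6%), against 54.4% of the whole list, and the median distance to the next summit was 13486 bp. The rule keeps deep summits away from the many peaks at gene ends, so the lower share is in part built in. Another summit was within 10 kb of 37.8% of intergenic peaks over 10 kb from an end. It was 43.2% for peaks in lncRNA interiors, so the trait was not particular to deep peaks. Joining deep summits of up to 10 kb spacing left 6838 peaks (63.6%) alone, and 67 runs of 5 or more held 410 peaks (3.81%). BAHCC1, a chromatin reader gene at chr17:81410365-81442126, had the run with the most, 15 peaks of median fold 2.34. LMNA, the lamin A/C gene, at chr1:156096670-156127082, had 9 peaks with a median fold of 3.45 and a highest fold of 5.61.

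Density of deep peaks was high near chromosome ends. Other classes of peaks were not set beside it here. Interior length also goes with density (31.5 per Mb up to 10 kb, 2.85 over 1000 kb), and the values below are not adjusted for it. Within 5 Mb of a chromosome's outermost genes (on the acrocentric chromosomes, of the last gene of the long arm), deep peaks numbered 32.0 per Mb of interior, and they numbered 17.4 from 5 to 10 Mb, 14.2 from 10 to 20 Mb, 11.5 from 20 to 50 Mb, and 9.35 beyond 50 Mb. The median expected pileup moved with it, from 6.55 fragments in the first range to 4.76 in the last. The median fold ran the other way, from 2.91 to 3.28, a link that is in part built in, as above. By chromosome, density was 43.8 per Mb on chromosome 19, 29.3 on 17, 22.8 on 22 and 20.5 on 16. It was 9.46 on chromosome 3, 9.67 on 18 and 9.72 on both 4 and 5. Of the hosts named above for many or dense peaks, GSE1 and ZNF469 lie on chromosome 16, and RBFOX3, RPTOR and BAIAP2 on 17. CAMTA1, RANBP2, TRAPPC9, PRKAG2 and AGO2 lie on chromosomes other than these 4 dense ones.

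At 3 deep peaks the fold was above 10. RPS29, a ribosomal protein gene with an annotated span of 27.7 kb here, held the highest, 17.1 (interval 15.6 to 18.9), with 427 fragments over an expected 24.0 at chr14:49585999-49587029. That summit is within 1 kb of RN7SL1, which encodes the RNA of the signal recognition particle. DNAJB4, a heat shock protein of the HSP40 family, had a fold of 13.9 (11.0 to 17.3) at chr1:78003945-78004533, 668 bp from an annotated internal start. ZFHX3, a homeobox transcription factor, had 10.7 (8.21 to 13.6) at chr16:73478046-73478557, at the lysine tRNA gene TRK-TTT1-1. 7SL and tRNA genes have near-identical copies elsewhere, so the origin of reads there is uncertain. The summits of these 3 peaks each had a noncoding gene or an annotated internal start within 1 kb. The DNAJB4 peak did not reach its start.

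The next 9 had no small gene within 1 kb and no annotated start within 1 kb in the table used, which holds no start for some of their hosts, ATAD2, LRP1B and WDFY3 included. ADAP1, an Arf GTPase-activating protein, had a fold of 8.70 (7.33 to 10.2), with 141 fragments over 15.3. C21orf91 had 7.16 (5.07 to 9.84). ATAD2, a bromodomain ATPase, had 7.03 (6.35 to 7.75) from 395 fragments over 55.4, the second lowest q of the deep peaks. PSD2, an Arf exchange factor, had 6.66 (5.24 to 8.35), and CD163L1, a scavenger receptor, 6.77 (4.84 to 9.23). LRP1B (6.81, 4.53 to 9.86), a large lipoprotein receptor, WDFY3 (6.56, 4.33 to 9.56), an autophagy adaptor, and AP1AR (6.54, 4.32 to 9.53), an adaptor regulator, rested on 25 or 26 fragments over 2.97 or 2.98. The intervals of these last folds overlap widely, so their order is not resolved. The lowest expected pileup of the whole list was 2.97 fragments, so the LRP1B, WDFY3 and AP1AR peaks stood at or near that floor.

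Some peaks of very low q had ordinary folds over a very high expected pileup. SYT7, a synaptotagmin, had 803 fragments over 331.5 (fold 2.42, 2.25 to 2.59). RAP1GAP, a GTPase-activating protein, had 524 over 161.9 (fold 3.22), and OSBP2, an oxysterol-binding protein, 483 over 131.5 (fold 3.65). GPAM had 216 over 38.1 (fold 5.55, 4.84 to 6.34), with its summit 10 bp from the start printed above. In SYT7, RAP1GAP and OSBP2 the widths were 335, 455 and 482 bp. No annotated start in the table was within 10 kb, and SYT7 and RAP1GAP have none of their own in it. The median expected pileup of all deep peaks was 5.36 fragments. Copy number and the uniqueness of reads at the SYT7, RAP1GAP and OSBP2 peaks were not examined.

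Few deep peaks overlapped a REXO4 peak, and the share moved with the expected pileup. By at least 1 bp, 67 deep peaks (0.623%, interval 0.483 to 0.791%) overlapped a REXO4 peak, against 2.03% of the whole list, 4.17% of gene-end peaks and 1.24% of intergenic peaks over 10 kb from an end. The share was 0.688% (0.426 to 1.05%) of peaks in lncRNA interiors. It was 0.751% (0.540 to 1.02%) of intergenic peaks 1 to 10 kb from an end. These intervals overlap that of the deep peaks, so the low share was not particular to them. The 67 deep peaks overlapped 65 of the 1460 REXO4 peaks (4.45%) and lay in 64 genes. Of the 64 on chromosomes with starts, 34 (53.1%) were at an annotated internal start. At starts, 34 of 543 deep peaks (6.26%, 4.37 to 8.64%) were shared, and away from starts 30 of 9638 (0.311%, 0.210 to 0.444%). The intervals do not overlap.

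Width and expected pileup moved with sharing. Among deep peaks under 400 bp wide, 2.58% were shared at starts and 0.145% away from them. From 400 to 1000 bp the shares were 5.97% and 0.661%, and from 1000 bp they were 11.7% (14 of 120, 6.53 to 18.8%) and 6.59% (6 of 91, 2.46 to 13.8%), whose intervals overlap. With 10 to 20 expected fragments, 8.15% at starts and 0.760% away were shared, and over 20 expected fragments, 7.97% and 5.29%. The shares at starts were the higher ones in each of these ranges, and the intervals of the widest peaks did not separate them. Up to 4 expected fragments, 1 of 2598 deep peaks was shared. The lower share of deep peaks did not hold at the highest expected pileup: over 20 fragments, 32 of 463 deep peaks (6.91%) were shared, against 5.90% of gene-end peaks and 6.63% of the whole list. From 10 to 20 fragments the shares were 1.82% of deep peaks, 3.37% of gene-end peaks and 2.49% of the whole list.

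Folds of the 2 lists are the authors' values from separate calls and are given side by side only. ELF2, with the internal promoter printed above, had an RNaseH1 fold of 6.16 (5.05 to 7.44) and a REXO4 fold of 2.48. RIPK1, a kinase of cell death signalling, had 5.68 (4.27 to 7.41) and a REXO4 fold of 2.48. TACC1, a coiled-coil protein of the centrosome, had 5.58 (4.68 to 6.6) and 2.03. TCF7L2 had 5.26 (3.87 to 7.01) and 2.55, at a summit 220 bp from its start. ARHGAP29, a GTPase-activating protein, had 4.69 and 1.56, and OLFM1, a secreted olfactomedin, 4.67 and 1.95, at 64 and 103 bp from an internal start. Over the 67 peaks, the median RNaseH1 fold was 3.23 (2.98 to 3.46), and the REXO4 folds ranged from 1.48 to 5.55 with a median of 2.23. In 53 of them the summits of both proteins were within 200 bp.

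Few deep summits lay at small genes inside the hosts. Within 1 kb of a small noncoding gene or pseudogene were 274 deep peaks (2.55%), against 5.69% of the whole list. The share was 2.77% (2.44 to 3.13%) in gene interiors 1 to 10 kb from an end, close to that of the deep peaks (2.26 to 2.86%). Intergenic peaks had 11.0% at 1 to 10 kb from an end and 14.2% at over 10 kb. Pseudogenes took 197 of the 274 deep peaks, miRNA genes 36, transcribed pseudogenes 24 and snoRNA genes 10, and tRNA genes 2. Apart from the RPS29 and ZFHX3 peaks, folds at these genes ran in the range of other deep peaks, with medians of 3.15 at pseudogenes, 3.04 at miRNA genes and 3.28 at snoRNA genes.

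The 36 peaks at miRNA genes lay near 34 miRNA genes, and the peak covered at least part of 10. The mature sequences at the 3 of these 10 with the highest fold are shown because they mark where the peak meets a processed RNA, with the seed (bases 2 to 8) in capitals, 5′ to 3′ (RefSeq, GRCh38.p14).
hsa-miR-7107-5p, in KDM2B (chr12:121444326-121444347, minus strand): uCGGCCUGgggaggaggaaggg
hsa-miR-4785, in RBMS1 (chr2:160407819-160407839, minus strand): aGAGUCGGcgacgccgccagc
hsa-miR-11401, in SLC7A5 (chr16:87853906-87853925, plus strand): uCACGUCUgcggcugucacg
The KDM2B peak had a fold of 3.31 and the SLC7A5 peak 3.01. The RBMS1 peak had 3.07 and was the only one of the 10 that also overlapped a REXO4 peak. KDM2B encodes a histone demethylase that binds CpG islands, RBMS1 an RNA-binding protein and SLC7A5 an amino acid transporter. The 14 mature sequences of the 10 genes had 14 different seeds. These data measure DNA at the miRNA gene and not the miRNA.

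Of the gene lists, those of very long genes had the lowest density of deep peaks. All 22 common fragile site genes had a deep peak, against 46.4% of eligible genes, but they held 3.71 peaks per Mb, against 13 over all. The 30 neuronal and synaptic genes were alike, with 24 having a peak and 3.63 per Mb. Median interiors were 1.13 Mb in the fragile site list and 0.794 Mb in the neuronal list. Of all genes with more than 1000 kb of interior, 93.9% had a deep peak, at 2.85 per Mb. From 300 to 1000 kb, 86.2% had one, at 7.35 per Mb. In the fragile site and neuronal lists, the median of each gene's highest fold was 4.2 and 4.26. It was 3.5 over all host genes and 4.11 over host genes with more than 1000 kb of interior. LRP1B had the fold of 6.81 given above, and CTNNA3, an alpha-catenin, with LRRTM3 inside it, had 6.29 (4.12 to 9.23). GRM8 had 5.53, ASTN2 5.18 and CSMD1 5.04, all neuronal genes. NRG3 and GRIN2A were among the neuronal genes with none.

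Over all eligible genes 46.4% had a deep peak, with 13 per Mb, and by interior length the density was 19.4 per Mb from 30 to 100 kb and 13.8 per Mb from 100 to 300 kb. The median interiors of the lists that follow lay in these ranges of length, and no difference of a list from all genes was tested. Of the Hippo and TEAD pathway, 11 of 16 eligible genes had a deep peak, with 21.8 per Mb. STK3, the kinase MST2, had a fold of 5.38 (3.46 to 8.03), TEAD1, a transcription factor of the pathway, 4.69 (3.38 to 6.35), and AMOTL1, a scaffold that binds YAP, 4.73 (3.67 to 6.01) at 67 bp from an internal start. YAP1 itself had no deep peak. Of collagens, 10 of 12 had one, with 20.4 per Mb. COL4A2 reached 5.44 (4.10 to 7.08) from 53 fragments and COL1A2 4.79 (2.94 to 7.42) from 18. Of actin and focal adhesion genes, 19 of 27 had one, with 14 per Mb. PALLD, an actin cross-linker, had 5.47, TNS3, a tensin, 4.78, and ITGA3, an integrin, 4.76.

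Of receptor tyrosine kinases, 14 of 20 had a deep peak, with 9.30 per Mb. EGFR had 5 peaks and a highest fold of 5.03 (3.53 to 6.98), MET 1 peak of 4.50 and EPHB2 4 with a highest of 3.92. PDGFRA, PDGFRB, KIT and AXL had none. Of the TGF-β and BMP pathway, 13 of 22 had one, with 14.7 per Mb. The latent TGF-β binding protein LTBP1 had 4.79, the BMP receptor BMPR2 4.27 and the ubiquitin ligase SMURF1 4.02, while the receptors TGFBR1 and TGFBR2 had none. Of osteoblast and mesenchymal transcription factors, 17 of 24 had one, with 13 per Mb, led by TCF7L2, GLI2 (4.75) and CREB3L2 (4.72). Of chromatin regulators, 20 of 25 had one, with 16.4 per Mb. ARID1B, a subunit of a chromatin remodeller, had 5.36 (4.49 to 6.35) from 132 fragments, HDAC4, a histone deacetylase, 5.15 at 451 bp from an internal start, and BPTF 4.84. Of DNA damage genes, 16 of 20 had one, with 10.6 per Mb, led by BRCA2 (4.79, 2.94 to 7.42), RAD51B and BLM (both 4.59). These 3 rested on 18 or 20 fragments each. The summits in RAD51B and BLM were within 1 kb of a 7SL pseudogene and of an annotated snoRNA gene. The highest peaks of BRCA2, COL1A2 and LTBP1 each had 18 fragments over 2.97, the lowest expected pileup of the whole list. The lists hold longer genes than the average eligible gene, with median interiors of 0.0721 to 1.13 Mb against 0.0355 Mb, so shares with a peak are not comparable and densities go with length.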

How the data were processed

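The 12 libraries are anti-Flag ChIP-seq of nuclease-dead RNaseH1 and REXO4, with inputs. The submitters' processing notes name, without giving roles, MACS2 2.1.0.20150731, HISAT2 2.2.1, SAMtools 1.17, Trim Galore 0.6.10, deepTools 3.5.1 and Cufflinks, with build hg38. Which libraries entered the peak calling, with which control and threshold, was not given in the sources used here. Peaks carry a name that may stand for a single replicate, and this was not resolved. Fold is a ratio, and −log10 p and −log10 q are deposited by the authors with each peak. The largest q of the RNaseH1 list was 0.198. Total reads per library, and so the depth, are unknown here.

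Everything else was computed here with Python 3.11.15 and its packages pandas 2.3.3, SciPy 1.17.1, NumPy 2.4.6 and matplotlib 3.10.9. For each peak, the whole number of fragments was sought whose Poisson tail gives the p at the fold, with a tolerance of 0.05 fragments, for 100% of peaks, and the recovery and the position rule were checked on simulated data. Intervals of folds are exact Poisson, of shares exact binomial, and of medians by order statistics. Neighbouring peaks are treated as independent in them. Genes came from RefSeq (GRCh38.p14), with 58961 of 59792 kept and 831 left out because they stood out of order on their chromosome. Starts and sequences came from the RefSeq tables of the same release. Interior length was measured on a 100 bp grid. Named genes were the hosts of the 12 peaks of highest fold, the 8 hosts with most peaks, the 6 highest shared with REXO4, up to 3 per list and the 6 lowest in q. Some genes that this rule selects are not reported here. Genes named as dense, without a peak, in runs or at miRNA genes were chosen after their values were seen. The members and lists were chosen with earlier results of these data known. Planned motif searches at summits were made at start windows instead, since no genome sequence was used here.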

Additional observations from a re-analysis of the deposited data

How the results depend on the processing

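No paired analysis was possible because the results come from a peak list with no value per library and from no test. The number of deep peaks was 6942 at over 20 kb from an end, 2672 at over 50 kb and 2903 at a q of 1e-05 or less. Their median fold was 3.10 at over 5 kb, 3.16 at over 20 kb, 3.27 at over 50 kb, 3.15 at a q of 0.05 or less and 3.88 at a q of 1e-05 or less, where the choice itself favours high folds. Host genes numbered 3064 at over 20 kb, 1232 at over 50 kb and 2081 at a q of 1e-05 or less. The share overlapping REXO4 was 0.427% under 1000 bp wide, 1.93% at a q of 1e-05 or less, and 0.311% without peaks at an annotated start, the last chosen after seeing the data. Peaks per Mb were 14.6 at over 5 kb, 11.1 at over 20 kb, 8.11 at over 50 kb, 12.7 under 1000 bp wide, 12.6 at a q of 0.05 or less, 3.51 at a q of 1e-05 or less, 12.6 with ends of every gene class, 12.5 with chromosome X, 12.7 without small genes and 12.3 without peaks at starts. In each case fewer or other peaks and lengths enter by construction. The share of deep peaks at an annotated start was 14% at a q of 1e-05 or less. The share with a fold of 5 or more was 7.13% at a q of 1e-05 or less and 2.54% at over 50 kb. Shares of the whole list at a q of 1e-05 or less are not given here. The shares of 1.93%, 14% and 7.13% at that q are thus not comparable with those of the whole list given above. Precision is limited by fragments, with a median of 19 per peak, and 324 deep peaks (3.01%) had a q over 0.05.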

Other observations

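The 7 peaks that met the position rule but were 2000 bp wide or more were left out, and 4 of them had an annotated internal start within 1 kb. They lay in ESPN, BCL9L, KLF12, MIDEAS, GSE1, TJP3 and RTN4, with a median fold of 3.0. TJP3, a tight junction scaffold, had a fold of 6.92 with its summit 181 bp from a start, and BCL9L, a Wnt coactivator, had 5.59. KLF12, a transcriptional repressor, and RTN4, a reticulon of the endoplasmic reticulum, had folds of 3.75 and 2.62, with summits 95 and 73 bp from a start. The widest, in GSE1, spanned 3270 bp with a fold of 3.0. Just inside the limit, 37 deep peaks from 1.5 to 2 kb wide had a median fold of 3.12.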
